A study of Homo sapiens with 18 samples.

Results

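The 8 genes described here, *MAP4*, *DMAC2*, *CHP1*, *CSNK1D*, *TENM1*, *IMPA2*, *HSD17B8* and *LHPP*, were picked by symbol from the 59251 genes of the deposited count table because they had been among the strongest falls in cells making full-length Csy4, against DMSO or against split Csy4. Their lower level in those cells is therefore how they were chosen, and it is given below as a description with no test. All 8 passed the filter on low counts, as did 17966 genes in all.

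The study sequenced poly(A)-selected RNA of the human embryonic kidney line HEK-293T in 6 groups of 3 libraries. Untransfected cells received DMSO (the solvent, labelled 0.5 µM), rapamycin (0.1 µM) or grazoprevir (0.5 µM). Transfected cells made full-length Csy4 and received DMSO, or made split Csy4 and received DMSO (untriggered) or grazoprevir (triggered), with the compound given 6 hours after transfection. All groups were plated at 70000 cells. No group in the labels was transfected without a Csy4 construct, so transfection, construct and enzyme cannot be told apart in any comparison of transfected with untransfected cells. Whether replicate libraries were separate cultures is not in the labels, so each p-value reflects only the spread between these samples.

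Csy4, an endoribonuclease of a bacterial CRISPR system, binds a short RNA hairpin and cuts just below it. Split Csy4 is expressed as fragments that the antiviral protease inhibitor grazoprevir brings together. Rapamycin inhibits the mTOR kinase. A poly(A) count reports the amount of an mRNA relative to all others, and fewer cells with an mRNA and less of it per cell cannot be told apart in it.

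The 8 genes have unrelated roles. *MAP4* encodes the main microtubule-associated protein of cells other than neurons, which binds along microtubules and stabilises them. *CSNK1D* encodes casein kinase 1 delta, which phosphorylates the PERIOD proteins of the circadian clock. *CHP1* encodes a calcium-binding partner of sodium-proton exchangers that also activates the glycerol acyltransferase GPAT4. *DMAC2* encodes a mitochondrial factor for assembly of the distal membrane part of respiratory complex I. *TENM1* encodes a teneurin, a large cell-surface protein that pairs with latrophilin receptors. *IMPA2* encodes an inositol monophosphatase, *HSD17B8* a mitochondrial oxidoreductase subunit that works with CBR4 in fatty acid synthesis, and *LHPP* a phosphatase that acts on phosphohistidine.

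Library totals ran from 12362101 to 19095828 counts, and tested genes held 99.84% of them. Of 6 genes listed as expressed in the HEK-293 line 5 were at a mean of 1 CPM (counts-per-million, with TMM library factors) or more over the 18 libraries. *IGF2BP1* had a mean of 425 CPM and *LIN28B* of 237 CPM, while *NEFM* was near 0. Of 6 blood markers 1 passed the filter, with *CD3E* and *HBB* at 0 in every library, and of 7 carcinoma-line markers 2 passed. The summed level of the 7 fibroblast markers, 3 of which passed, was 59.1 to 61.1 CPM with DMSO and 37.9 to 46.5 CPM with full-length Csy4. With rapamycin that sum was 38.8 to 39.8 CPM. The carcinoma-line sum was 14.9 to 15.3 CPM with DMSO, 10.8 to 12.4 CPM with full-length Csy4 and 7.04 to 8.15 CPM with rapamycin. The sum of the HEK-293 list was 638 to 648 CPM with DMSO, 672 to 701 CPM with full-length Csy4, 738 to 742 CPM with untriggered and 732 to 752 CPM with triggered split Csy4. The part of these sums in the results below was not tested.

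Csy4 recognises a stem of 5 base pairs, so the annotated transcripts were searched for a stem of that kind, CTGCC, any 5 bases and GGCAG, on the sense strand. In GENCODE 29 the longest transcripts of the 8 genes held 0 such matches, against 1.54% of the 14997 tested genes found there by name. With every annotated transcript searched, 1 of the 8 genes had a match, against 1.99% of tested genes. It lies in the 3′ UTR of CSNK1D-204, a coding transcript of 1580 bases and 1 of 26 annotated for the gene, at bases 1493 to 1507, which is chr17:82239800-82239814 on the minus strand of GRCh38. The match is shown with 6 bases on either side, because it is the one hairpin-like match in the set, with both arms of the stem in capitals.
CSNK1D-204 stem: cgcacaCTGCCagccaGGCAGaggggc
A shorter stem of TGCC, any 5 bases and GGCA gave 0 matches in the longest transcripts, against 7.83% of tested genes, and in any transcript only the same *CSNK1D* site, against 10.1%. These letters describe the annotated sequence and are not a measured cut.

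The 250 bases before the start site were available for 6 of the 8 genes, with 8 start sites in all (RefSeq, GRCh38.p14). A CCAAT box, CCAAT or ATTGG on either strand, lay in 5 of the 8 windows, against 32.6% of the 18088 windows of tested genes. A GC box, GGGCGG or CCGCCC, lay in 4 of 8, against 60.4%. A TATA box (TATAAA or TTTATA), an E box (CACGTG) and an ETS core (CCGGAAG or CTTCCGG) lay in 0 of 8, against 6.51%, 7.92% and 12.9%. The windows of *MAP4*, *DMAC2*, *CHP1* and *HSD17B8* are shown because each holds a CCAAT box, with the boxes in capitals.
MAP4, chr3:48088849-48089098, minus strand: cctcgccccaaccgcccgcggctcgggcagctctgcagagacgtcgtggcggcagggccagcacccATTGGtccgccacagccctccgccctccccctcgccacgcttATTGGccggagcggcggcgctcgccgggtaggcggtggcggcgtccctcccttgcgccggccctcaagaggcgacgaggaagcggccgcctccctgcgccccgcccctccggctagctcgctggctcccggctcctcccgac
DMAC2, chr19:41439538-41439787, minus strand: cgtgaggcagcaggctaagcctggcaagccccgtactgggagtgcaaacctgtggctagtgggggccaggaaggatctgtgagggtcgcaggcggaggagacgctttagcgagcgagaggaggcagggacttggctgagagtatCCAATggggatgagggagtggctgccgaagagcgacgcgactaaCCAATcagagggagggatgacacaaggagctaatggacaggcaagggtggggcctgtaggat
CHP1, chr15:41231018-41231267, plus strand: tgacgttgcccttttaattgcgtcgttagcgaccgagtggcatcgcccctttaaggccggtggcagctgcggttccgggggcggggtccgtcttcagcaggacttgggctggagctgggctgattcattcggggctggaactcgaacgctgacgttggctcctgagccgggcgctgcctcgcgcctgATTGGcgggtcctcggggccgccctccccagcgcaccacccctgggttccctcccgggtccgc
HSD17B8, chr6:33204405-33204654, plus strand: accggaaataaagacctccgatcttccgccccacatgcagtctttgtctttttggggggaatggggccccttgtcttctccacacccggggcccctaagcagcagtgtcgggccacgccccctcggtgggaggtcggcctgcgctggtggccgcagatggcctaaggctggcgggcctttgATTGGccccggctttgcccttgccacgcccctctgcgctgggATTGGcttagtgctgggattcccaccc
*MAP4*, *DMAC2* and *HSD17B8* each have 2 CCAAT boxes in these windows and *CHP1* has 1. The *DMAC2* window lies inside the annotated span of the gene (chr19:41431318-41439912), so it precedes an inner start. The fifth window with a box is the inner start of *TENM1*. The window of *LHPP*, the outer start of *TENM1* and a second start of *MAP4* have 0.

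Full-length Csy4 cells had the lowest mean level of each of the 8 mRNAs among the 6 groups. *MAP4* stood at 319, 317 and 308 CPM in the DMSO libraries and at 143, 138 and 142 CPM in the full-length Csy4 libraries. The remaining 12 libraries lay between 288 and 336 CPM, so the full-length group stood apart from every other library. The log2 fold change against DMSO was -1.16 ± 0.039 (SE), a 2.23-fold lower level. Against untriggered and triggered split Csy4 it was -1.20 ± 0.039 and -1.16 ± 0.039. Among the 11569 genes averaging 5 CPM or more its fall was ranked 23rd, 4th and 3rd by size in these 3 comparisons, which are treated as part of its choice. Against DMSO the ranks of the members ran from 1 for *IMPA2* to 248 for *CSNK1D*. They ran from 2 for *DMAC2* to 415 for *LHPP* against untriggered split Csy4, and from 1 for *DMAC2* to 158 for *LHPP* against triggered split Csy4. *HSD17B8*, below 5 CPM, has no such rank.

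*CSNK1D* was at 124, 125 and 125 CPM with DMSO and at 72.7, 70.7 and 78.4 CPM with full-length Csy4. Split Csy4 libraries read 147, 159 and 155 CPM untriggered and 170, 159 and 160 CPM triggered. The full-length libraries were thus below all others, and the split libraries were above all DMSO libraries. Against DMSO its log2 fold change was -0.75 ± 0.047, and it widened to -1.06 ± 0.047 and -1.14 ± 0.047 against untriggered and triggered split Csy4. *SLC16A3*, which overlaps *CSNK1D* on the opposite strand, had 151 counts in all 18 libraries together.

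*CHP1* had 69.4, 72.4 and 65.5 CPM with DMSO, 34.6, 42.0 and 36.0 CPM with full-length Csy4, 69.6, 84.3 and 85.6 CPM with untriggered split Csy4, and 78.3, 78.6 and 81.8 CPM with triggered split Csy4. Its log2 fold change with full-length Csy4 was -0.88 ± 0.067 against DMSO and -1.09 ± 0.066 against untriggered split Csy4. The pseudogene *CHP1P2* resembles *CHP1* in sequence. It went from 2.91 ± 0.47 CPM with DMSO to 12.2 ± 0.57 with full-length Csy4, 10.8 ± 1.0 with untriggered and 11.9 ± 0.88 with triggered split Csy4 (mean ± SD, n = 3). It was named after its values were seen, and how reads were divided between the copies was not tested.

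*DMAC2* read 38.6, 39.7 and 40.05 CPM with DMSO and 19.5, 16.9 and 20.9 CPM with full-length Csy4. Untriggered split Csy4 libraries had 49.9, 52.1 and 46.0 CPM, and triggered ones 43.4, 43.3 and 49.9 CPM, all above every DMSO and grazoprevir library. Its log2 fold change with full-length Csy4 was -1.04 ± 0.078 against DMSO, and -1.36 ± 0.077 against untriggered split Csy4, where its distance was the widest of the 8 genes.

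*TENM1* was at 265, 269 and 265 CPM with DMSO and at 103, 93.5 and 88.9 CPM with full-length Csy4, a log2 fold change of -1.49 ± 0.051. It also stood low in 9 other libraries: 179, 153 and 170 CPM untriggered, 158, 173 and 160 CPM triggered, and 120, 135 and 133 CPM with rapamycin. The order of means was DMSO, grazoprevir, untriggered split, triggered split, rapamycin and full-length Csy4, and the 2 split groups were the only neighbours that overlapped. *TENM1* overlaps *STAG2*, which lies on the opposite strand and has far more reads. *STAG2* was at -0.02 ± 0.032 between full-length Csy4 and DMSO (adjusted p = 0.726, edgeR), a difference not called. With full-length Csy4 it was called lower against untriggered (-0.14 ± 0.032, adjusted p = 2.32e-04) and triggered split Csy4 (-0.12 ± 0.032, adjusted p = 0.00299). Both split groups were called higher than DMSO for *STAG2*, while *TENM1* was low in them. The strand setting of the read counting is not given in the sources used here.

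The other 3 genes have few counts and correspondingly wide errors. *IMPA2* had 9.53, 10.3 and 10.9 CPM with DMSO and 3.30, 2.76 and 3.46 CPM with full-length Csy4, on 503 and 140 counts per group. *LHPP* had 8.78, 8.14 and 6.25 CPM with DMSO and 2.62, 2.76 and 2.52 CPM with full-length Csy4, on 387 and 116 counts. *HSD17B8* had 6.09, 4.63 and 4.95 CPM with DMSO and 1.95, 1.14 and 1.39 CPM with full-length Csy4, on 261 and 65 counts. Neither group overlapped the other for any of the 3 genes. Their log2 fold changes against DMSO were -1.68 ± 0.17 for *IMPA2*, -1.56 ± 0.18 for *LHPP* and -1.82 ± 0.25 for *HSD17B8*, larger than those of the 5 more abundant genes. Against untriggered split Csy4 they were -1.12 ± 0.18 for *IMPA2*, -0.43 ± 0.21 for *LHPP* and -1.02 ± 0.28 for *HSD17B8*. There the groups overlapped for *LHPP* and *HSD17B8*, and *LHPP* was at -0.27 without untriggered split replicate 2. Against triggered split Csy4 the changes were -1.01 ± 0.18 for *IMPA2*, -0.56 ± 0.21 for *LHPP* and -0.24 ± 0.31 for *HSD17B8*, and the last lies within its own error. Over its 14 alternatives that value of *HSD17B8* ran from -0.45 without full-length replicate 1 to -0.04 without triggered split replicate 1, and it was -0.08 without full-length replicate 2.

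Over the 8 genes the median log2 fold change with full-length Csy4 was -1.32 against DMSO, -1.07 against untriggered and -1.04 against triggered split Csy4, beside -0.01, -0.00282 and -0.0032 over all tested genes. Background shares were 24% of tested genes called lower against DMSO, 14.9% against untriggered and 12.2% against triggered split Csy4. The full-length libraries were below every DMSO library for 8 of 8 genes (27.5% of all tested genes), below every untriggered split library for 6 (20.2%) and below every triggered split library for 7 (18.5%). These counts follow from how the genes were chosen.

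Per kilobase of annotated exon, the DMSO levels were 21.0 CPM for *MAP4*, 20.7 for *TENM1*, 17.5 for *CHP1*, 11.3 for *CSNK1D*, 9.0 for *DMAC2*, 4.46 for *HSD17B8*, 2.68 for *IMPA2* and 1.9 for *LHPP*. The longest annotated transcripts ran from 990 bases for *HSD17B8* to 12891 bases for *TENM1*. Their median length was 2823 bases with 55.6% GC, beside 3427 bases and 48.3% GC over tested genes. The longest transcript is annotated as a retained-intron form for *DMAC2* and *CSNK1D* and as a nonsense-mediated decay form for *IMPA2*. On GRCh38.p14 the genes lie on 8 different chromosomes: *MAP4* at chr3:47850695-48088848, *HSD17B8* at chr6:33204655-33206831, *LHPP* at chr10:124461823-124614141, *CHP1* at chr15:41231268-41281887, *CSNK1D* at chr17:82239019-82273750, *IMPA2* at chr18:11981507-12030877, *DMAC2* at chr19:41431318-41439912 and *TENM1* at chrX:124375903-125204312.

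The comparisons that leave out full-length Csy4 were not used as such to choose the genes, and they were tested with edgeR's quasi-likelihood test, with Benjamini-Hochberg adjustment across the 17966 genes. DMSO and split Csy4 libraries did enter the contrasts behind the choice, which favours high values in both. A gene chosen against DMSO is thereby favoured to fall in split Csy4 against DMSO, and one chosen against split Csy4 to rise. The calls in such comparisons are not free of the choice. Whether triggered split libraries entered it is not stated, so full-length against triggered split Csy4 was treated as part of the choice as well. In untriggered split Csy4 cells against DMSO 3 of the 8 genes rose and 4 fell (7 of 8, against 28.9% of all tested genes, 14.8% higher and 14.1% lower). The groups did not overlap for 2 of the rises and all 4 falls (20.6% and 20% of tested genes). *CSNK1D* rose by 0.30 ± 0.044 on the log2 scale (adjusted p = 5.11e-08), *DMAC2* by 0.32 ± 0.069 (adjusted p = 1.62e-04) and *CHP1* by 0.21 ± 0.061 (adjusted p = 0.00655). *LHPP* fell by 1.13 ± 0.18 (adjusted p = 2.77e-07), *HSD17B8* by 0.80 ± 0.22 (adjusted p = 0.0037), *TENM1* by 0.67 ± 0.049 (adjusted p = 3.31e-14) and *IMPA2* by 0.56 ± 0.15 (adjusted p = 0.00196). *MAP4* was at 0.04 ± 0.037, with a 95% interval of -0.03 to 0.11 (adjusted p = 0.427). The *CHP1* call ended without DMSO replicate 3 (0.17, adjusted p = 0.0562), untriggered split replicate 2 (0.17, adjusted p = 0.06) or replicate 3 (0.15, adjusted p = 0.0942). That of *HSD17B8* ended without untriggered split replicate 1 (-0.51, adjusted p = 0.102).

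Against a threshold of a 1.2-fold change in the same test, only *LHPP* and *TENM1* remained called in untriggered split Csy4. The adjusted p was then 0.466 for *DMAC2*, 1 for *CHP1*, 0.429 for *CSNK1D*, 0.0958 for *IMPA2* and 0.0515 for *HSD17B8*.

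Triggered split Csy4 and grazoprevir alone share the drug, and neither group holds a DMSO library. Triggered split libraries may have entered the choice of the genes, which would favour rises in this comparison. Of the 8 genes 3 rose and 4 fell between them (7 of 8, against 32.1% of all tested genes, 16.2% higher and 16% lower). *HSD17B8* was at 4.85, 5.69 and 4.31 CPM with grazoprevir and at 2.19, 1.46 and 1.57 CPM with triggered split Csy4, a log2 fold change of -1.50 ± 0.25 (adjusted p = 1.6e-06). *LHPP* went from 6.33, 7.5 and 6.31 CPM to 3.72, 3.74 and 4.17 CPM, a change of -0.79 ± 0.18 (adjusted p = 3.08e-04). *IMPA2* went from 10.7, 10.3 and 7.53 CPM to 6.13, 5.69 and 7.24 CPM, at -0.57 ± 0.15 (adjusted p = 0.00229). *TENM1* went from 230, 228 and 245 CPM to the triggered values given above, at -0.52 ± 0.050 (adjusted p = 4.31e-11). For all 4 falls and all 3 rises the groups did not overlap (20.4% of tested genes in either direction).

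The 3 rises in this comparison were smaller. *CSNK1D* went from 134, 125 and 125 CPM to the triggered values given above, a 1.28-fold higher level, at 0.35 ± 0.044 (adjusted p = 7.31e-10). *DMAC2* rose by 0.19 ± 0.071 (adjusted p = 0.0283) and *CHP1* by 0.16 ± 0.062 (adjusted p = 0.0372). The *DMAC2* call ended without grazoprevir replicate 2 (0.17, adjusted p = 0.1) or 3 (0.18, adjusted p = 0.0806) and without triggered split replicate 3 (0.12, adjusted p = 0.289). The *CHP1* call ended with DESeq2 (adjusted p = 0.0604) and without any of 5 of the 6 libraries, all but grazoprevir replicate 1 (adjusted p = 0.0646 to 0.203). *MAP4* was at 0.04 ± 0.037, with a 95% interval of -0.03 to 0.11 (adjusted p = 0.439). Against a 1.2-fold change *TENM1*, *HSD17B8* and *LHPP* stayed called and the other 4 did not, with *CSNK1D* at an adjusted p of 0.0845 and *IMPA2* at 0.081.

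Triggered split Csy4 against DMSO shares its libraries with both comparisons above and gave 3 rises and 4 falls (7 of 8, against 31.6% of tested genes, 16% higher and 15.6% lower), with no overlap between groups for any of the 7 (21.7% of tested genes in either direction). The values were 0.39 ± 0.044 for *CSNK1D*, 0.21 ± 0.070 for *DMAC2*, 0.20 ± 0.062 for *CHP1*, -0.70 ± 0.049 for *TENM1*, -0.68 ± 0.15 for *IMPA2*, -1.0 ± 0.18 for *LHPP* and -1.58 ± 0.25 for *HSD17B8*. *MAP4* stood at -0.00390 ± 0.037 (adjusted p = 0.952, edgeR). The *DMAC2* call ended without DMSO replicate 1 (adjusted p = 0.065) or triggered split replicate 3 (adjusted p = 0.209), and the *CHP1* call without DMSO replicate 3 (adjusted p = 0.0618). Against a 1.2-fold change neither of these 2 genes was called.

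**Figure D1:**
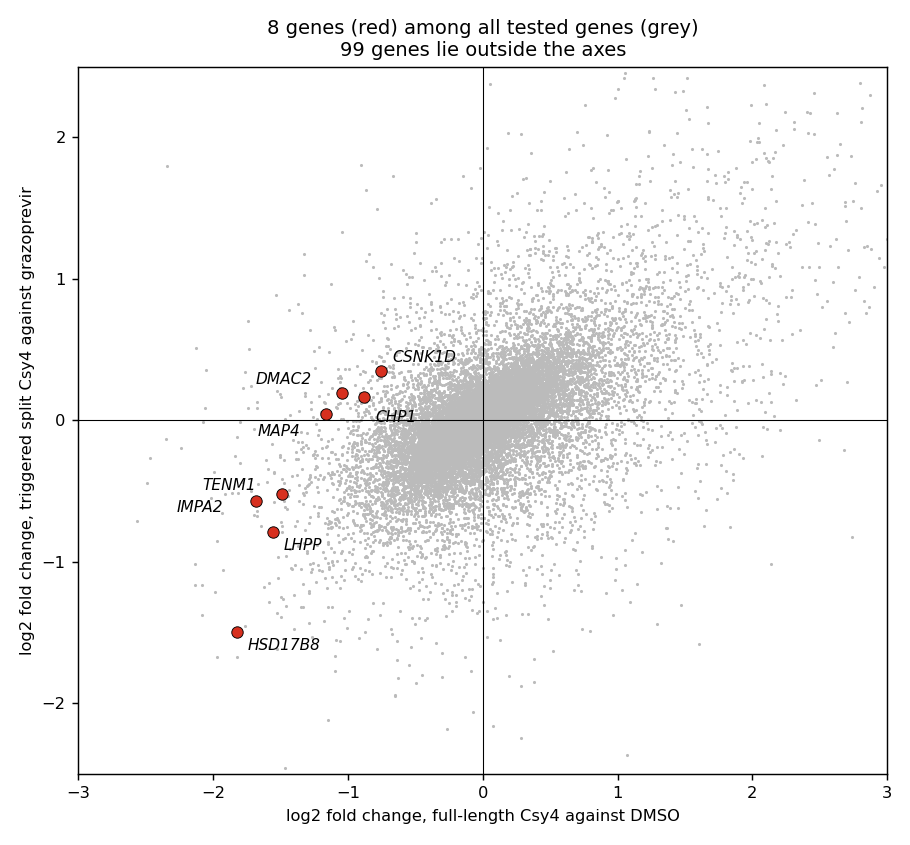
Log2 fold change with full-length Csy4 against DMSO (x axis) and with triggered split Csy4 against grazoprevir (y axis) for the tested genes (grey, 99 of which lie outside the axes and are not drawn) and the 8 genes (red), in comparisons that share no library. All 8 genes lie to the left of 0 by choice. *CSNK1D*, *DMAC2* and *CHP1* lie above 0 on the y axis and *MAP4* at 0.04, while *TENM1*, *IMPA2*, *LHPP* and *HSD17B8* lie below.

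For scale, 4315 genes were called lower with full-length Csy4 against DMSO. Of these, 2145 (49.7%) were also called lower in triggered split Csy4 against grazoprevir, and 118 (2.73%) were called higher. The 8 genes were chosen on the first of these comparisons or against split Csy4, so their own counts are not set beside these shares.

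Between triggered and untriggered split Csy4 none of the 8 genes was called (0 of 8 by edgeR, with 1 at an unadjusted p below 0.05 and 0 called by DESeq2, against 0.2% of all tested genes). The closest was *HSD17B8*, at 1.61, 3.45 and 3.89 CPM untriggered and 2.19, 1.46 and 1.57 CPM triggered, a log2 difference of -0.78 ± 0.27 (adjusted p = 0.376). Its groups overlapped, since untriggered replicate 1 lay among the triggered values. The *CSNK1D* libraries did not overlap, at 147 to 158.6 CPM untriggered and 158.8 to 170 CPM triggered. Its log2 difference was 0.08 ± 0.044 (adjusted p = 0.66, edgeR). For *MAP4* the 95% interval of the difference was -0.12 to 0.03, for *CHP1* -0.13 to 0.12 and for *TENM1* -0.13 to 0.07. The interaction of grazoprevir with split Csy4, which asks whether the drug acts differently in the 2 backgrounds, also called 0 of 8 genes with edgeR and with DESeq2 (0.351% of tested genes with edgeR). *TENM1* (0.15 ± 0.069) and *HSD17B8* (-0.70 ± 0.34) reached an unadjusted p below 0.05 there, with adjusted p of 0.472 and 0.53.

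Grazoprevir alone against DMSO called 0 of the 8 genes with edgeR, 1 at an unadjusted p below 0.05 and 1 with DESeq2 (0.2% of all tested genes called by edgeR). That gene was *TENM1*, at 230, 228 and 245 CPM with grazoprevir, below every DMSO library (6.26% of tested genes were so placed). Its log2 fold change was -0.18 ± 0.048 (adjusted p = 0.0937 with edgeR, 0.0433 with DESeq2 and 0.00736 without a filter on low counts). The other 7 genes lay between -0.21 and 0.04.

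With rapamycin, in cells without Csy4, *TENM1* fell from the 265 to 269 CPM of DMSO to 120, 135 and 133 CPM, a log2 fold change of -1.04 ± 0.050 (adjusted p = 1.93e-20). *CSNK1D* rose to 145, 149 and 157 CPM, by 0.27 ± 0.044 (adjusted p = 5.69e-07). *HSD17B8* fell to 3.28, 2.52 and 4.26 CPM, by 0.64 ± 0.22 (adjusted p = 0.0174), a call that ended without DMSO replicate 1 (adjusted p = 0.129), rapamycin replicate A (0.0529) or replicate B (0.151). In all 1 of the 8 genes rose and 2 fell, against 33.2% of tested genes called, 17.2% higher and 16% lower. *MAP4* at -0.06 ± 0.037, *DMAC2* at -0.12 ± 0.072, *CHP1* at 0.09 ± 0.062, *IMPA2* at -0.25 ± 0.14 and *LHPP* at 0.03 ± 0.16 were not. Against a 1.2-fold change only *TENM1* was called, with *CSNK1D* at an adjusted p of 0.7 and *HSD17B8* at 0.127.

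No rapamycin or grazoprevir library entered the contrasts behind the choice, and the comparison of these groups was added after the data were seen. It called the same 3 genes of 8 (33.6% of tested genes, 17.3% higher and 16.3% lower): *TENM1* at -0.86 ± 0.050 (adjusted p = 1.71e-17), *CSNK1D* at 0.23 ± 0.044 (adjusted p = 1.27e-05) and *HSD17B8* at -0.56 ± 0.22 (adjusted p = 0.0448). The *HSD17B8* call ended under 8 of 13 alternatives, with adjusted p from 0.0179 to 0.259 over all of them, and that of *CSNK1D* ended against a 1.2-fold change (adjusted p = 1).

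**Figure D2:**
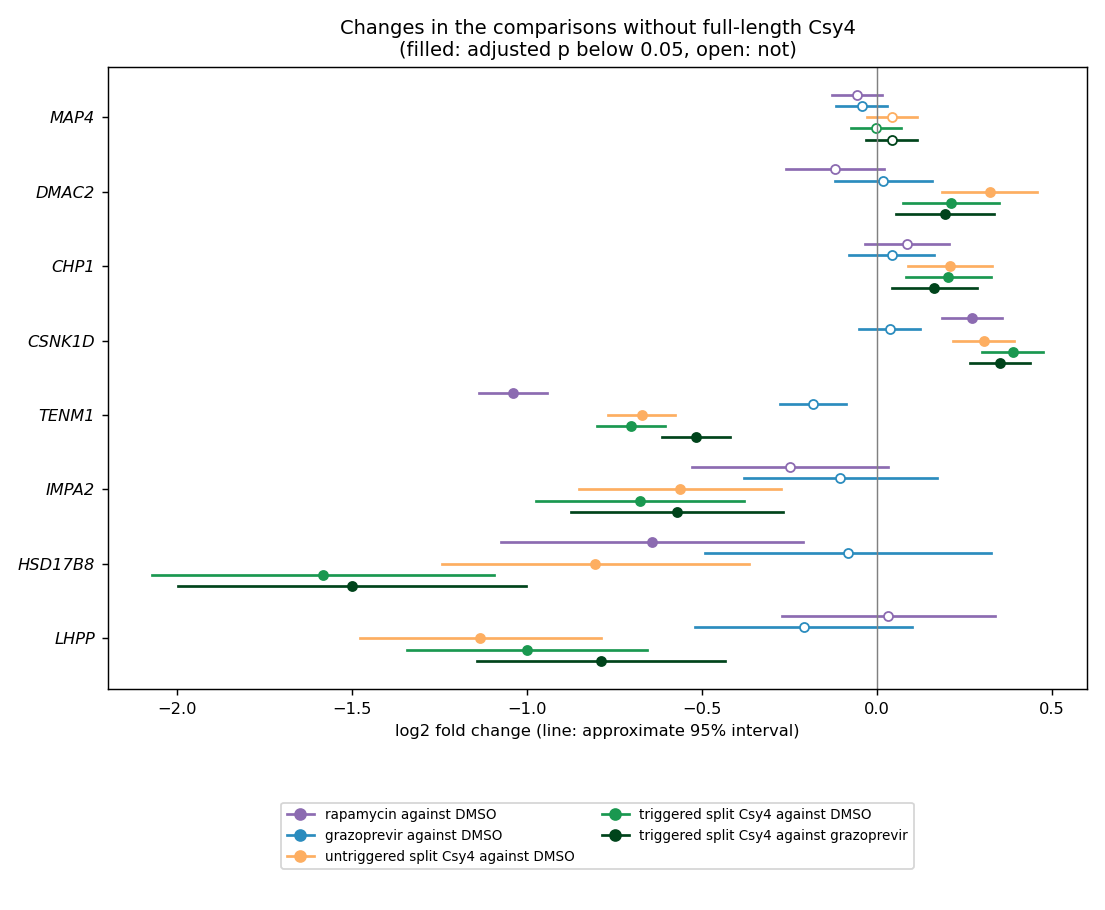
Log2 fold change (x axis) with an approximate 95% interval (line) of each of the 8 genes (y axis) in 5 comparisons without full-length Csy4 (colours). Filled points have an adjusted p below 0.05. *MAP4* is open in all 5, *CSNK1D* is filled to the right of 0 in 4, and *TENM1* lies farthest left with rapamycin.

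Across the 18 libraries *MAP4*, *DMAC2*, *CHP1* and *CSNK1D* correlated with one another at Pearson r of 0.93 to 0.96 (log2 CPM), values that share the low full-length group. *HSD17B8* and *LHPP* correlated at 0.81, and *CSNK1D* and *HSD17B8* at 0.31. The other genes whose levels most resembled the mean of the 8 were sought among 10701 protein-coding genes averaging 5 CPM or more. Among the 5 closest were *SELENOI*, an enzyme of phosphatidylethanolamine synthesis (r = 0.988), *CTR9*, a subunit of the PAF1 transcription elongation complex (0.982), *OXA1L*, an inner mitochondrial membrane insertase (0.976), and *DDB1*, an adaptor of CUL4 ubiquitin ligases (0.973). *SELENOI* went from 217 ± 4.7 CPM with DMSO to 119 ± 1.7 with full-length Csy4 and was 193 ± 4.1 with untriggered split Csy4 (mean ± SD, n = 3). All points of these correlations share libraries, and they are given as descriptions.

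Relatives and partners of the 8 genes did not share one direction. Of 96 other genes listed, 90 were tested, and with full-length Csy4 against DMSO 24 rose and 26 fell at a median of 0.00687 (22.9% and 24% of all tested genes). The counts per list below are from the same comparison, so the same shares of all tested genes stand beside them. Among 15 microtubule-associated proteins and MARK kinases 5 rose and 5 fell. *MAP1B*, a neuronal microtubule-associated protein, fell from 160 ± 3.3 to 112 ± 6.2 CPM (n = 3), by 0.51 ± 0.046 (adjusted p = 3.48e-16). Among 19 tested genes listed with *DMAC2*, mostly assembly factors of complex I, 7 rose and 7 fell. They include *DMAC2L*, listed for its likeness to *DMAC2* and not as an assembly factor of complex I. It was down by 0.51 ± 0.12 (adjusted p = 1.31e-04, edgeR).

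In the casein kinase 1 and clock list 8 of 13 rose and 0 fell. *CSNK1E*, the closest kinase to *CSNK1D*, was listed at only 3.23 ± 0.28 CPM with DMSO and moved by 0.05 ± 0.21 (adjusted p = 0.877). It overlaps the read-through gene *TPTEP2-CSNK1E*, and how reads that fit both were counted is not given in the sources used here. Among 9 calcineurin and CHP relatives and CHP1 partners 2 rose and 1 fell, and the calcineurin subunit *PPP3R1* rose by 0.31 ± 0.048 (adjusted p = 7.64e-08).

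Of 7 teneurins and binding partners 1 rose and 3 fell, with *TENM3* going from 27.2 ± 3.0 to 20.8 ± 3.2 CPM, by -0.39 ± 0.087 (adjusted p = 1.1e-04). *TENM2* and *TENM4* were too low to test. The inositol list had 1 rise and 4 falls in 10, with *IMPA1*, the other inositol monophosphatase, at -0.30 ± 0.10 (adjusted p = 0.0196). In mitochondrial fatty acid synthesis 2 of 8 fell and 0 rose. The larger was *CBR4*, the partner subunit of HSD17B8, from 78.2 ± 1.5 CPM with DMSO to 40.4 ± 1.5 with full-length Csy4 (n = 3), by -0.95 ± 0.057 (adjusted p = 8.98e-25). *CBR4* stood at 54.5 ± 0.81 CPM with untriggered and 51.8 ± 2.2 with triggered split Csy4, between the other 2 groups, as *HSD17B8* did by its means. Among 9 phosphatases and kinases listed with *LHPP* 4 fell and 0 rose, and *PHPT1*, another phosphohistidine phosphatase, was at 0.11 ± 0.065 (adjusted p = 0.183).

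**Figure D3:**
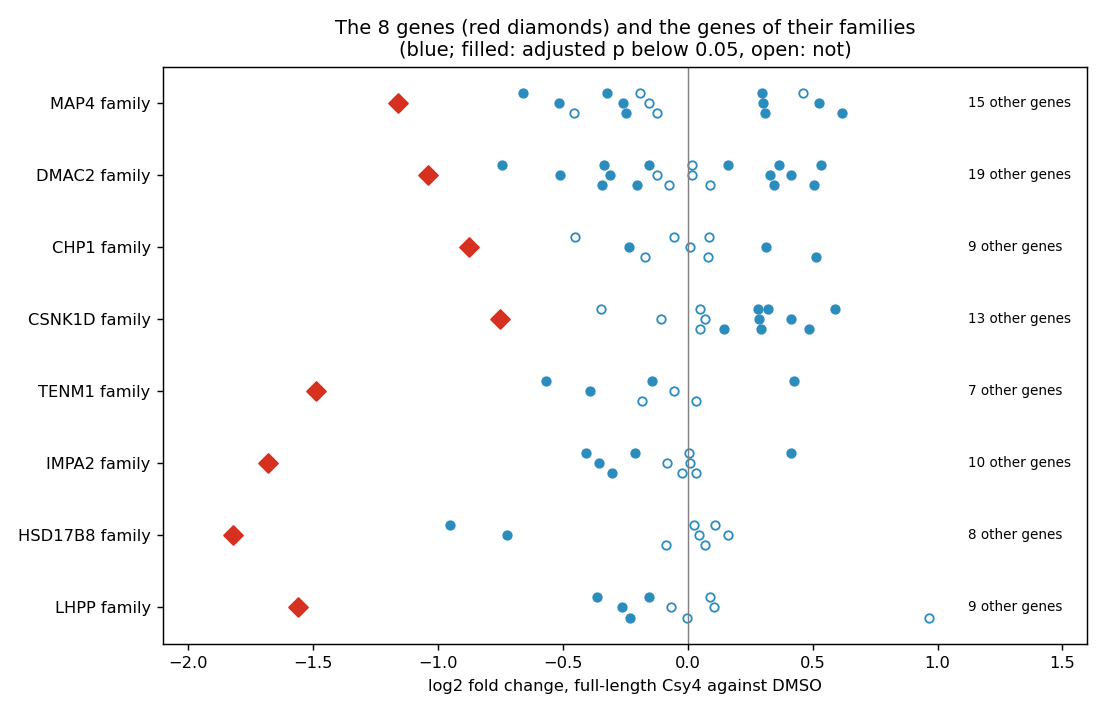
Log2 fold change with full-length Csy4 against DMSO (x axis) of the 8 genes (red diamonds) and of the tested relatives and partners listed with each (blue points, filled where the adjusted p is below 0.05). The red diamonds lie to the left of every blue point of their row, from -0.75 for *CSNK1D* to -1.82 for *HSD17B8*, and the choice of the 8 genes fixed their position.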

How the data were processed

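The authors deposited 1 table of raw read counts per gene for the 18 libraries. Per the submitters' processing notes it was made with cutadapt 1.9.1, HISAT2 2.2.1 and HTSeq 0.6.1 on hg38, with DESeq2 1.44.0 named beside them, and the strand setting is not given in the sources used here. The 3 rapamycin columns share 1 header and are called replicates A, B and C. Counts were fitted in R 4.3.3 with edgeR 4.0.16: filterByExpr, TMM factors, 1 robust quasi-likelihood fit of 6 group means, and Benjamini-Hochberg adjustment over 17966 genes, with a gene called at an adjusted p below 0.05. The SE is the log2 fold change over the square root of F, and intervals are 1.96 SE wide on either side. Totals of 12362101 to 19095828 counts gave a common biological coefficient of variation of 4.15%. Replicates differed by more than sampling noise.

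The members and lists were chosen with earlier results of these data known. Named genes are the 8 members, 1 relative per list whatever its values, and the 5 genes of highest likeness, 1 of which is not reported here. Alternatives were other scalings and filters, a test against a 1.2-fold change, DESeq2 1.42.0, only the groups compared, a replicate block and leaving out each library. The edgeR script was tested on simulated data with known changes. Sequences come from RefSeq (GRCh38.p14) and GENCODE 29, in which 83.5% of tested genes were found by name. Figures were drawn with matplotlib 3.10.9.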

Additional observations from a re-analysis of the deposited data

How the results depend on the processing

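Over the tested comparisons, the 8 genes and their alternatives gave 922 values. Of these, 879 kept their call or lack of one, 41 lost a call, 2 gained one and 0 reversed a called change. Some uncalled values near 0 changed sign among the 879, such as *LHPP* with rapamycin against DMSO (-0.09 to 0.14). In the comparisons treated as part of the choice 333 of 336 values stayed within the spread between replicates (1 SD). The 3 that moved were those of *MAP4* with library-size scaling alone (-1.08 against DMSO, -1.13 against untriggered and -1.10 against triggered split Csy4). With that scaling the median of the 8 genes against DMSO was -1.25 instead of -1.32. It also moved the share of higher calls from 48.8% to 61.1% for full-length Csy4 against DMSO, from 46.7% to 67.8% against untriggered and from 45.5% to 67.5% against triggered split Csy4. Against a 1.2-fold change the genes called fell from 8425 to 3647 for full-length Csy4 against DMSO, from 5024 to 863 against untriggered and from 4008 to 647 against triggered split Csy4. They fell from 5963 to 1406 for rapamycin and from 36 to 0 for grazoprevir against DMSO, from 5185 to 812 for untriggered and from 5677 to 1145 for triggered split Csy4 against DMSO, and from 5775 to 1160 for triggered split Csy4 against grazoprevir. They fell from 36 to 6 for triggered against untriggered split Csy4, from 6041 to 1439 for rapamycin against grazoprevir and from 63 to 1 for the interaction, since that test asks for a larger change. Members called then numbered 1 instead of 3 in both rapamycin comparisons, 2 instead of 7 in untriggered split Csy4 against DMSO and 3 instead of 7 in triggered split Csy4 against grazoprevir. Grazoprevir against DMSO called 1 member without a filter and with DESeq2. It called 36 genes with edgeR, 83 with DESeq2, 7 with only the groups compared and 66 with the replicate block; the cause was not tested. Without 1 library at a time its count ranged from 3 to 112 genes, that of the interaction from 14 to 141 and that of triggered against untriggered split Csy4 from 22 to 29. The highest values of the first 2 came without grazoprevir replicate 1. Members called ranged from 2 to 3 in both rapamycin comparisons, 6 to 7 in both split comparisons with DMSO and 5 to 7 in triggered split Csy4 against grazoprevir. In no pair of groups were all 3 correlations of same-numbered libraries above 0.1 (0.179, 0.126 and 0.018 for DMSO and grazoprevir), and 8 of 15 libraries correlated best with their own number. The numbers were therefore not taken as pairs, and the replicate block changed no other call of the 8 genes. No paired analysis was possible for rapamycin because its columns carry no numbers. The 5 genes most like the 8 shared 2 with the list over group means. *IMPA2*, *HSD17B8* and *LHPP*, on 65 to 503 counts per group in DMSO and full-length Csy4, have the widest errors.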
